A study of Mus musculus with 5 samples.

Results

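The genes described are 10 that macrophages are known for: the scavenger receptors Marco, Msr1, Cd36, Mrc1 and Cd68, the apoptotic-cell receptors Timd4, Mertk and Axl, and the macrophage markers Adgre1 and Lyz2. They were taken by name, and each locus is the mm10 gene span with 20 kb on both sides. They are 10 of 16240 gene loci with a tested window. PU.1 was mapped by chromatin immunoprecipitation and sequencing (ChIP-seq) in plasmacytoid dendritic cells (pDCs, 2 libraries) and conventional dendritic cells (cDCs, 2 libraries). Both cell types came from Flt3L cultures of mice of a strain written C56BL/6 in the labels, and the PU.1 antibody was T-20. The only input library, of chromatin with no antibody, came from cDCs. The 2 libraries of each cell type are biological replicates per the series' design text. The age and sex of the mice, a sort, a purity and a pooling of animals are not given in the labels used here.

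PU.1, the product of Spi1, is an ETS-family transcription factor required for macrophage and dendritic cell development, and it binds DNA around a GGAA core. Scavenger receptors take up modified lipoproteins, microbes and debris. Efferocytosis is the engulfment of dying cells, which macrophages recognise by the phosphatidylserine on their surface, directly or through bridging proteins. The genes serve as macrophage landmarks, and several are also known from subsets of dendritic cells.

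The values are deposited read counts in windows of 10 bp. The PU.1 libraries held 6896416 to 11388554 counts over all windows and the input 2776490, and the pDC pair was the shallower and more variable. A repeat-like set of 146 windows held 10.1% and 18% of the counts in pDC replicates 1 and 2, 10.5% and 9.15% in cDC replicates 1 and 2, and 74.6% in the input. Neighbouring windows were joined into sites. The value of a site is that of its summit, the window with the highest mean level, in CPM, counts relative to library size, scaled by edgeR's TMM factors. The summit was chosen anew under each alternative setting, so a fold given for a setting can belong to a neighbouring window. Where counts are printed for weak sites they are unscaled, and the cDC libraries are the deeper. The value of a locus is the summed CPM of its tested windows. Every log2 fold is pDC minus cDC with its standard error (SE), n = 2 libraries per cell type. Sites and loci were called at an adjusted p below 0.05 in edgeR's quasi-likelihood test, adjusted over all 60527 sites or all 16240 loci. PU.1 signal at marker loci, which is binding and not expression, was higher in pDCs at 5 of 10 pDC marker loci, among them Bst2 (2.52 ± 0.35 on the log2 scale) and Dntt (1.51 ± 0.18), and not called at the other 5. Of 10 cDC marker loci, 1 was higher in pDCs and 1 in cDCs. PU.1 signal was also higher in pDCs at 2 of 6 B cell loci and 2 of 5 tested neutrophil loci, and none of 6 T and NK cell loci was called by edgeR, at an unadjusted p below 0.05 or by DESeq2. Over all 16240 loci, 11.0% were called higher in pDCs and 7.97% higher in cDCs. The part of other cells in the results was not tested. In such pooled chromatin, fewer cells with a bound site and less binding per cell cannot be told apart.

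Marco was the gene with the largest difference and the only locus of the 10 called higher in pDCs. Msr1, Timd4, Axl and Lyz2 were called higher in cDCs, and Cd36, Mertk, Adgre1, Mrc1 and Cd68 missed the threshold. Among all loci, the called share was 19.0%, with 11.0% higher in pDCs and 7.97% higher in cDCs. Library sizes taken from the repeat-like windows ended all 5 calls of edgeR's test, with 3 of the 10 loci at an unadjusted p below 0.05, a Marco fold of 0.78 and a median fold of all loci of -0.46; DESeq2 with its own size factors called 5. Scaling by library size alone called 1 of the 10 higher in pDCs and 5 higher in cDCs, and split all called loci 1052 to 1845, against 1792 higher in pDCs and 1295 higher in cDCs with TMM. The median log2 fold was -0.38 over the 10 genes and 0.05 over all loci. The CPM of both pDC libraries lay below both cDC libraries at 6 loci and above them at 3, and the groups overlapped at Cd68 alone; over all loci, 27.4% lay below and 32.5% above. By level, averaged over the PU.1 libraries, Axl stood at percentile 94.9 of all loci, Cd68 at 94.0, Marco at 85.7, Adgre1 at 85.3, Mrc1 at 84.0, Cd36 at 81.1, Timd4 at 79.7, Msr1 at 74.3, Lyz2 at 71.6 and Mertk at 54.1.

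**Figure D1:**
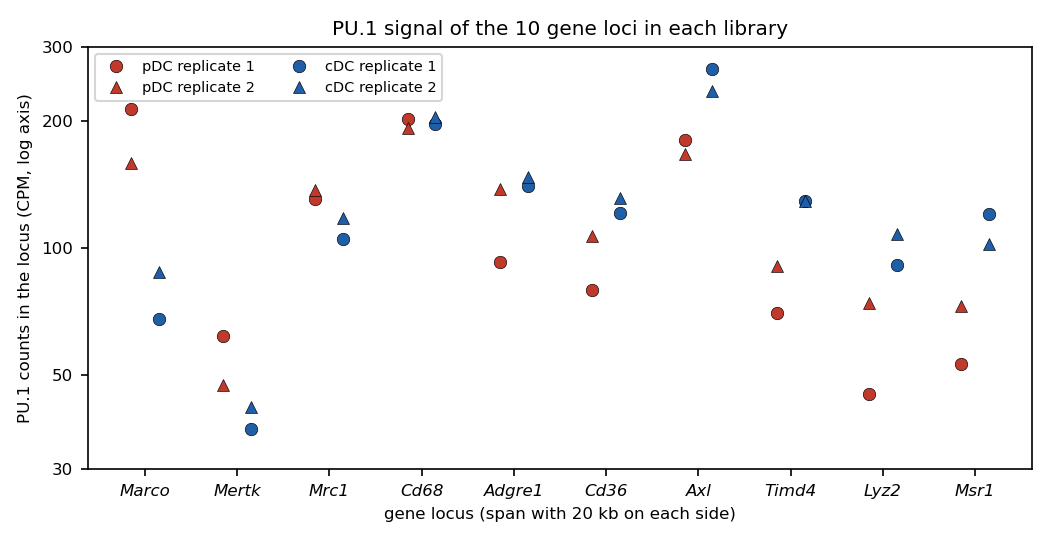
PU.1 counts of each locus on a log axis in CPM, with the pDC libraries (red) left of the cDC libraries (blue), circles for replicate 1 and triangles for replicate 2, and genes in the order of their log2 fold. Both pDC libraries stand above both cDC libraries at Marco, Mertk and Mrc1 and below them at Adgre1, Cd36, Axl, Timd4, Lyz2 and Msr1, and the groups overlap at Cd68.

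The 10 loci held 62 sites, 33 of them in a gene span. Of these 62 sites, 6 were called higher in pDCs and 12 higher in cDCs, against 8.40% and 5.89% of all sites. Library-size scaling gave 3 and 14 at the 10 genes, and over all sites 4204 higher in pDCs to 4981 higher in cDCs, against 5083 to 3568 with TMM. All loci but Cd68 held a called site, and Timd4 and Adgre1 held called sites in both directions. Of the 10 strongest sites, the top site of each locus, 4 were called, with summit log2 folds between -0.75 and 1.27 over all 10, and the other 14 called sites were weaker neighbours. Over input, 19 sites passed in pDCs and 26 in cDCs, against 28.2% and 31.2% of all sites. With library sizes taken from the repeat-like windows 56 and 61 passed. A miss over input named below therefore depends on the scaling and is not absence of binding. The input held 0 to 5 counts at the summits, so its own counting error is large at each of them. At 24 sites both pDC summit values lay below both cDC values and at 11 above, against 28.4% and 29.0% of all sites.

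**Figure D2:**
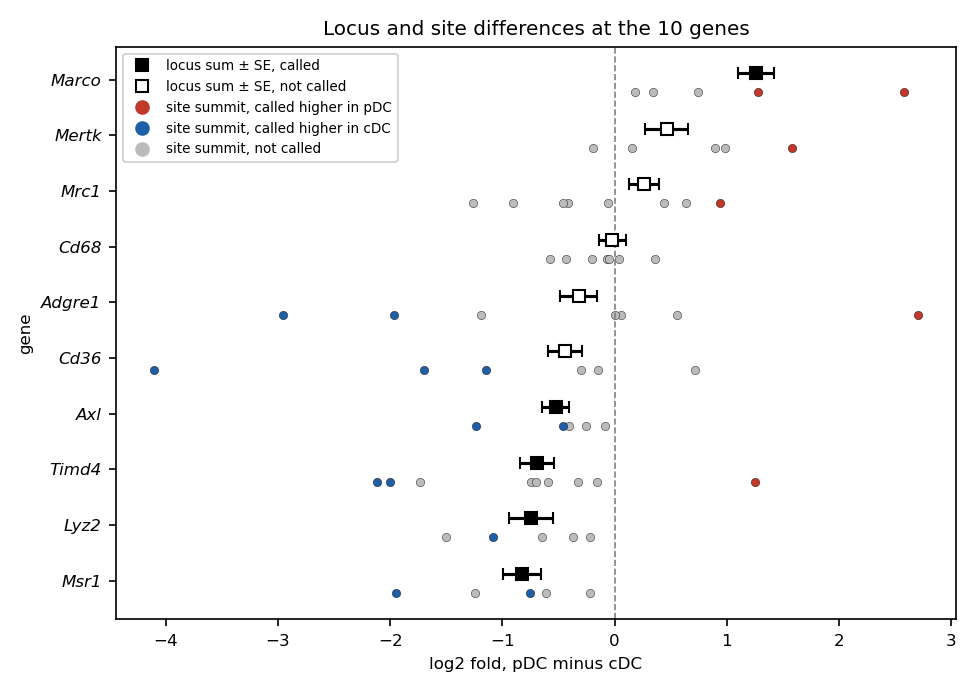
Log2 fold, pDC minus cDC, of each locus sum (squares with ± SE, filled where called) and of each of the 62 site summits (dots, red where called higher in pDCs, blue where called higher in cDCs, grey where not called). Marco lies furthest to the pDC side at 1.26 and Msr1 furthest to the cDC side at -0.83, and the Timd4 and Adgre1 rows hold both red and blue dots.

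Promoters are shown because tested sites lay at the starts of some of these genes and not of others. RefSeq promoter sequence (GRCm38.p6, whose coordinates are those of mm10) was matched for 8 of the 10 genes, all but Msr1 and Adgre1. Each window runs from 250 bases before the start to 50 after it. The Cd68, Timd4, Lyz2 and Cd36 promoters overlapped a tested site, and the promoters of Marco, Mertk, Axl and Mrc1 held no window of the table. The Cd68 site passed over input in both cell types, and the Timd4, Lyz2 and Cd36 promoter sites passed in neither. The 4 promoters with a site are printed up to the base before the start, in the direction of transcription, and for Cd68 also a stretch 8 to 37 bases after the start, where the summit lay. Capitals mark GAGGAA, the flanked core GGAAGT and the ETS-IRF composite (GGAA, then any 2 bases, then GAAA), each on either strand.

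Cd68, chr11:69666171-69666420, minus strand: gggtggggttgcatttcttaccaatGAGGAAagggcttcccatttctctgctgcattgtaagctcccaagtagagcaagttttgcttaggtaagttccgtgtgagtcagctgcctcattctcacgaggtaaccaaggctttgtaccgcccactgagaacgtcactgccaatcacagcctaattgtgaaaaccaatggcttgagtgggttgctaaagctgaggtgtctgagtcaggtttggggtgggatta

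Cd68 after its start, chr11:69666133-69666162, minus strand: aagGGAAGTgaggctTTTCATTTCCTCttc

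Timd4, chr11:46810549-46810798, plus strand: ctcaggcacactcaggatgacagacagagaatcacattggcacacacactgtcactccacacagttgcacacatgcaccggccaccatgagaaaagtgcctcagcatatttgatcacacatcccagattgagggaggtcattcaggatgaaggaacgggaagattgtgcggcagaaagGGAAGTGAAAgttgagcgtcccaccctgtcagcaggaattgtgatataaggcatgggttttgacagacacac

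Lyz2, chr10:117282273-117282522, minus strand: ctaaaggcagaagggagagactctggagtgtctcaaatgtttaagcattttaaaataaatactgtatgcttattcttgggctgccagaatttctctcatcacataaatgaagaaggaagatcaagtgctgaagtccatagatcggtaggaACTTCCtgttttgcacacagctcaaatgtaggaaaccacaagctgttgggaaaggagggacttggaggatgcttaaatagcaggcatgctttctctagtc

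Cd36, chr5:17835897-17836146, minus strand: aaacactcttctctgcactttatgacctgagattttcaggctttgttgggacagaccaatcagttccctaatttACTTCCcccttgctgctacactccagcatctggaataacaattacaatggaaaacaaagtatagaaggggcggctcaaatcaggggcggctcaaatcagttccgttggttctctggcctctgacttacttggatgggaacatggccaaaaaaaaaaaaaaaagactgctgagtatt

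All 4 promoters with a tested site held GGAAGT, as does 1 of the 4 without a window (Mrc1). The word lay 1 bp from the summit's centre at Cd68, 14 bp at Lyz2, 26 bp at Timd4 and 36 bp at Cd36. Windows lie on a 50 bp grid, so a summit is not located to the base. Such distances, here and below, do not rank the promoters. Of 32817 RefSeq promoters of the same length, 23.8% hold it. The ETS-IRF composite, the word bound by PU.1 together with IRF4 or IRF8, was found in Timd4, where it overlaps GGAAGT, and in Cd68, 24 and 13 bp from the summit's centre, and in 2.72% of all promoters. GAGGAA was found in Cd68 and in 3 promoters without a window (Marco, Axl and Mrc1), and in 28.3% of all promoters. No member promoter held the longer GAGGAAGT, which 3.20% of all promoters hold. TGANTCA, the AP-1 word, was found in 2 places in Cd68 and in no other member promoter, and in 7.81% of all promoters. All words were searched on both strands, GGAAGT and the composite were added after the sequences had been read, and a match is not evidence of binding.

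Marco encodes a class A scavenger receptor for bacteria and particles. Its locus on chromosome 1 (span 120474538 to 120505024) held 214 and 159.6 CPM in pDC replicates 1 and 2, against 67.9 and 87.9 CPM in cDC replicates 1 and 2. Both pDC libraries were well above both cDC libraries, and the log2 fold was 1.26 ± 0.16 (adjusted p = 0.000115). With any 1 library left out the fold was 1.03 to 1.46. Here and below, such a fit leaves 1 cell type with 1 library and takes the spread from the pair of the other cell type alone. It called 890 to 6599 of all loci, against 3087 with every library, so a call kept or gained there says little about stability. None of the windows belonged to another gene's locus. Of 5 sites, 2 were called, both higher in pDCs.

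The strongest Marco site, chr1:120467351-120467710, lies 6.83 kb outside the span and 37.47 kb after the start, and it ranked at percentile 99.1 of all 60527 sites. Its summit had 31.0 and 25.2 CPM in pDCs, against 10.5 and 12.8 CPM in cDCs, and both cell types passed over input. The log2 fold was 1.27 ± 0.22 (adjusted p = 0.0011), and the call ended without cDC replicate 1 (1.13, adjusted p = 0.247) and with repeat-window library sizes (0.72, adjusted p = 0.837). The second site, chr1:120501551-120501810, lies in the span 3.37 kb after the start. It had 15.3 and 8.50 CPM in pDCs, against 1.85 and 2.16 CPM in cDCs, and passed over input in pDCs and not in cDCs. With a log2 fold of 2.58 ± 0.31 (adjusted p = 2.9e-05), it is the called member site with the smallest p. Its CPM relative to the stronger site, a ratio that no scaling changes, was 0.494 and 0.337 in pDCs, against 0.176 and 0.169 in cDCs. An exact permutation test of 2 libraries against 2 cannot give a two-sided p below 0.333, so such ratios are given untested. The other 3 Marco sites were not called.

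Of 16212 loci that share no window with the 10 genes, those with CPM over the 4 PU.1 libraries nearest to Marco's were Gtf2h4, Ddr1 and Pold1, at Euclidean log2 distances of 0.167, 0.302 and 0.334. Gtf2h4 had 217 and 178 CPM in pDCs, against 69.5 and 85.8 CPM in cDCs. Such nearness describes 4 libraries.

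Msr1 encodes scavenger receptor A, which takes up acetylated low-density lipoprotein. On chromosome 8, the Msr1 locus (span 39543232 to 39642750) held 53.1 and 73.1 CPM in pDCs, against 121 and 102.5 CPM in cDCs. Both pDC libraries were below both cDC libraries, at a log2 fold of -0.83 ± 0.17 (adjusted p = 0.00311), and no window lay in another gene's locus. Without cDC replicate 1 the locus was not called (-0.71, adjusted p = 0.0956). The strongest site, chr8:39619801-39620160 in the span, had 9.10 and 9.43 CPM in pDCs, against 17.1 and 14.1 CPM in cDCs (log2 fold -0.75 ± 0.23, adjusted p = 0.0456), and passed over input in both. The call was lost without pDC replicate 1 (-0.73), cDC replicate 1 (-0.61) or cDC replicate 2 (-0.89). The site chr8:39644701-39644860, 1.95 kb outside the span, had summit counts of 3 and 10 in pDCs, against 27 and 57 in cDCs (log2 fold -1.95 ± 0.51, adjusted p = 0.0176). Its fold was -1.20 without pDC replicate 1 and -1.35 without cDC replicate 2, both uncalled, and -3.20 without pDC replicate 2. The other 3 sites of the locus were not called.

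Cd36 encodes a class B scavenger receptor for oxidised lipoprotein and long-chain fatty acids. The Cd36 locus on chromosome 5 (span 17781690 to 17888959) held 79.8 and 107 CPM in pDCs, against 121 and 132 CPM in cDCs. The groups did not overlap, but the log2 fold of -0.44 ± 0.16 was not called (adjusted p = 0.0559). Of 14 alternative settings, 4 called the locus. They were library-size scaling (-0.57, adjusted p = 0.0233), no filter (-0.455, adjusted p = 0.0442), a replicate block (-0.45, adjusted p = 0.0259) and the fit without pDC replicate 2 (-0.67). The strongest site, chr5:17839601-17839910, lies 3.86 kb before the RefSeq promoter table's start, which is inside the gene span, and passed over input in both cell types. It had 11.2 and 11.4 CPM in pDCs, against 5.98 and 7.80 CPM in cDCs, and was not called (0.72 ± 0.24, adjusted p = 0.156; with the summit window alone it was, at adjusted p = 0.0425).

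The second Cd36 site, chr5:17854251-17854960, lies 18.91 kb before that start. It passed over input in cDCs alone (log2 fold over input 3.295, against 1.471 in pDCs). It had 2.27 and 4.17 CPM in pDCs, against 9.75 and 10.8 CPM in cDCs, a log2 fold of -1.70 ± 0.29 (adjusted p = 0.00183). Per library, its CPM relative to the strongest site was 0.202 and 0.365 in pDCs, against 1.63 and 1.38 in cDCs. Thus the stronger of the 2 sites was the first in pDCs and the second in cDCs, in each library. Of the weaker sites, chr5:17857351-17857510 had 3 and 9 counts in pDCs, against 25 and 19 in cDCs (summit log2 fold -1.15 ± 0.54, window with the smallest p -2.20 ± 0.61, adjusted p = 0.0388). That call ended without pDC replicate 1 (-0.43) or cDC replicate 1 (-0.89). Without pDC replicate 2 a neighbouring window became the summit, with a fold of -2.90. At chr5:17883051-17883110 the summit held 0 and 1 counts in pDCs, against 17 and 16 in cDCs. The pooled ratio was 0.0494 (95% interval 0.00121 to 0.295, counting error only) and the adjusted p was 0.00736. Deposited windows hold at least 33 counts over the 5 libraries, so this window was kept almost only through its cDC counts. The interval and the call leave that selection out. The call ended without cDC replicate 1 (-3.997) or 2 (-4.155). All 3 called Cd36 sites were lower in pDCs. The promoter site, chr5:17836001-17836110, had 10 and 9 counts in pDCs, against 24 and 14 in cDCs, and was not called.

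Mrc1 encodes the mannose receptor CD206, a C-type lectin. Its locus on chromosome 2 (14229414 to 14332023) held 131 and 137.5 CPM in pDCs, against 105.5 and 118 CPM in cDCs. The difference of 0.26 ± 0.14 was not called (adjusted p = 0.198), although the groups did not overlap. It was called without pDC replicate 1 (0.30) and was -0.28, uncalled, with repeat-window library sizes. The strongest of its 8 sites, chr2:14249801-14250460, lies in the span 20.54 kb after the start and passed over input in both cell types. It had 13.0 and 8.04 CPM in pDCs, against 5.18 and 5.89 CPM in cDCs (0.94 ± 0.26, adjusted p = 0.0445). The call ended without pDC replicate 1 (0.59), cDC replicate 1 (0.84) or cDC replicate 2 (1.03).

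Cd68 encodes a lysosomal glycoprotein of the scavenger receptor family. On chromosome 11, the Cd68 locus (span 69664213 to 69666170) held 203 and 193 CPM in pDCs, against 197 and 205 CPM in cDCs. It was the only one of the 10 loci whose groups overlapped, with a log2 fold of -0.02 ± 0.12 (adjusted p = 0.9395). None of its 7 sites was called by edgeR, at an unadjusted p below 0.05 or by DESeq2. A gene span of 2 kb leaves most of this locus to its neighbours: every window also belonged to at least 1 of 8 other gene loci. The site at the start itself, chr11:69665951-69666510, ranked at percentile 99.2 of all sites, with its summit 0.01 kb after the start at the stretch printed above. It had 25.1 and 21.8 CPM in pDCs, against 16.8 and 19.8 CPM in cDCs. Both pDC values were above both cDC values, by 0.36 ± 0.21 on the log2 scale (-0.15 with repeat-window library sizes), and the site was not called (adjusted p = 0.906).

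**Figure D3:**
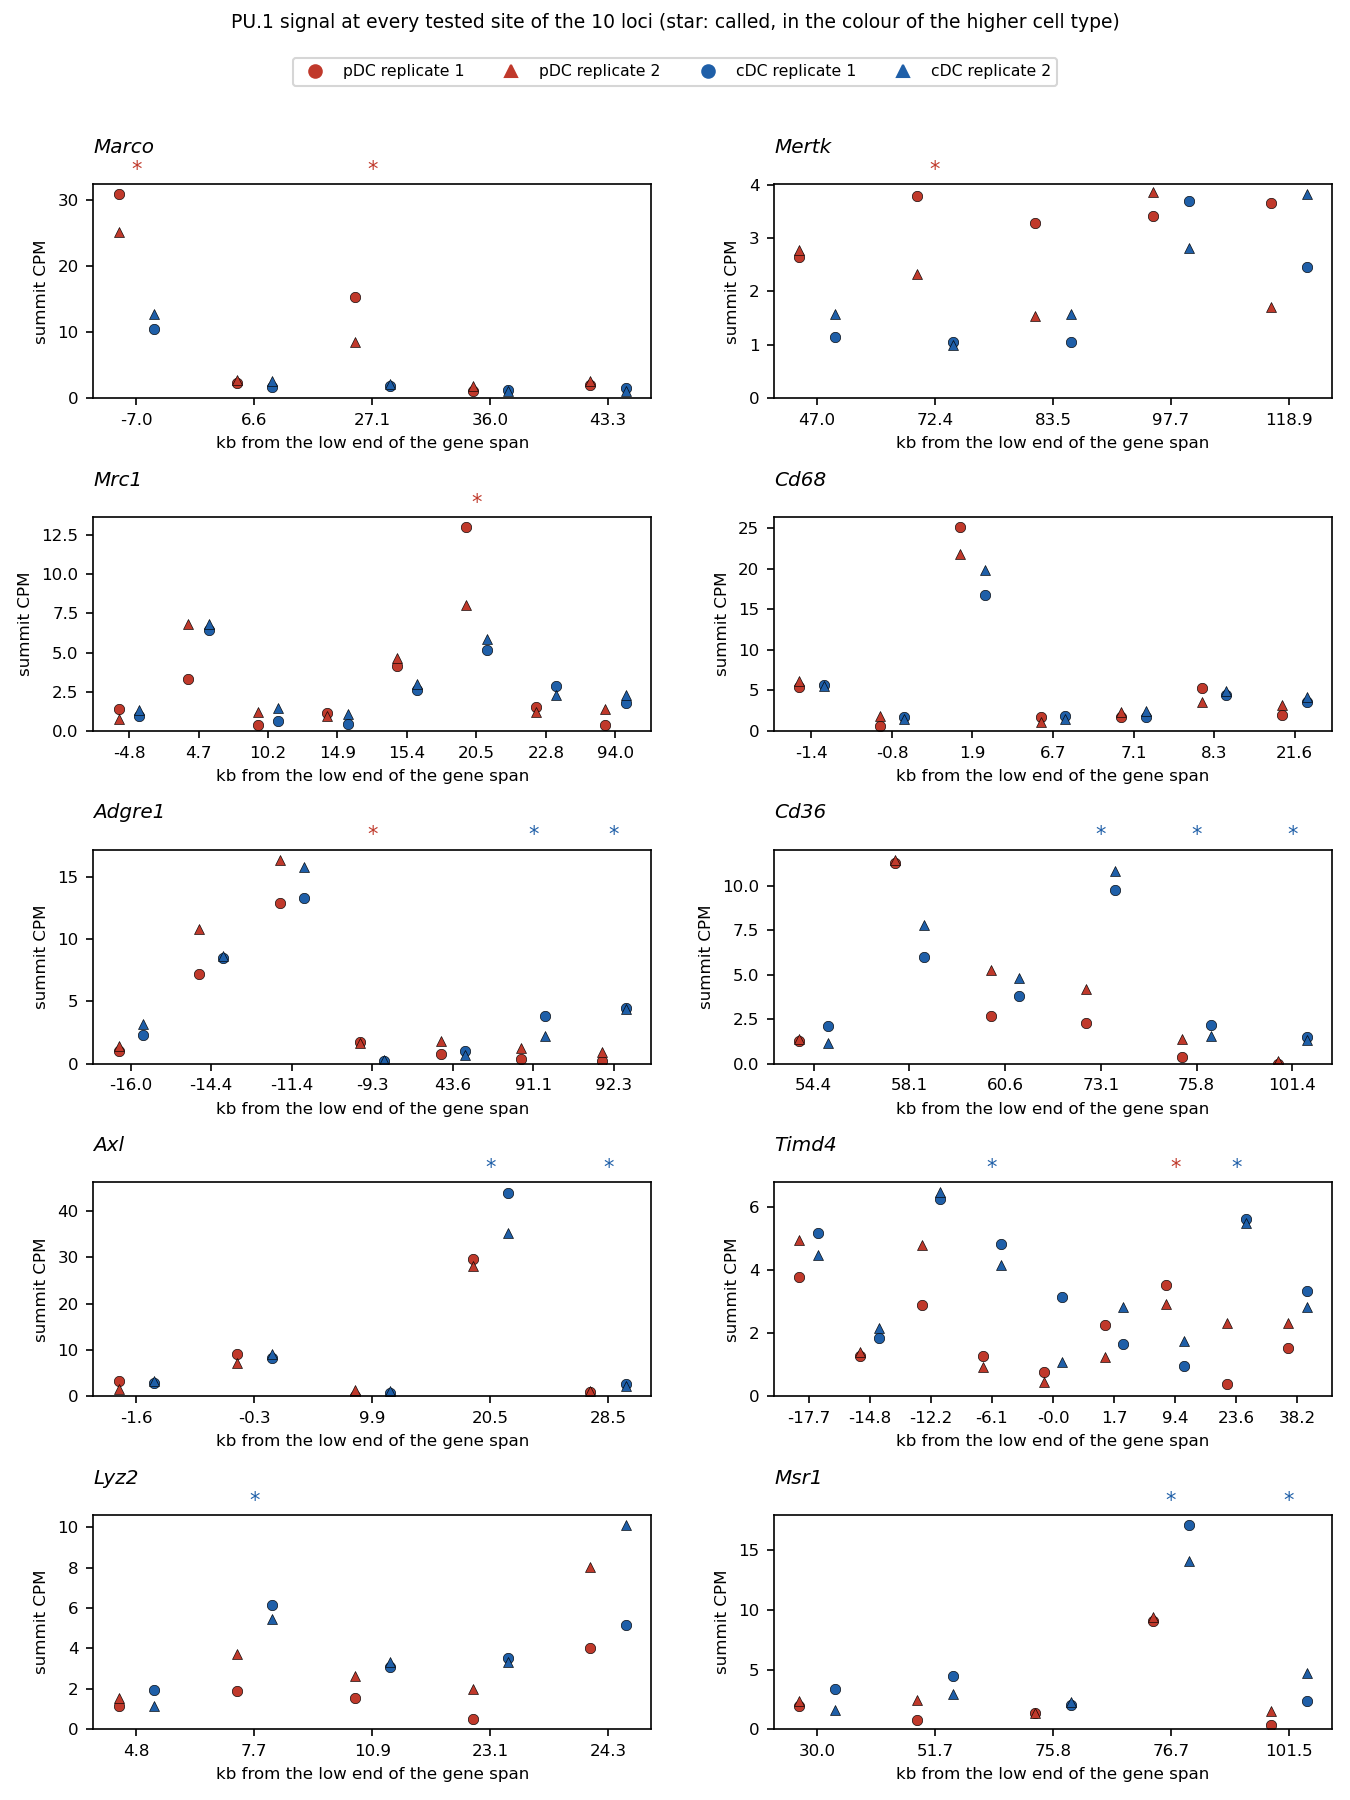
Summit CPM (linear axes from 0) of each tested site of the 10 loci, in order along the chromosome and labelled with the distance in kb from the low end of the gene span, pDC libraries (red) left of cDC libraries (blue), with stars over called sites in the colour of the higher cell type. In the Cd36 panel the second site from the left is the highest in both pDC libraries and the fourth in both cDC libraries.

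Among the receptors for dying cells, Timd4 and Axl were lower in pDCs and Mertk was not called. Timd4 encodes TIM-4, which binds phosphatidylserine directly and marks resident macrophages. The Timd4 locus on chromosome 11 (span 46810786 to 46844333) held 70.1 and 90.7 CPM in pDCs, against 129.5 and 129 CPM in cDCs, and 36.2% of its windows also lay in the locus of Havcr1. The groups did not overlap, at a log2 fold of -0.69 ± 0.15 (adjusted p = 0.004735). The locus was uncalled without cDC replicate 1 (-0.69, adjusted p = 0.0828) or 2 (-0.69, adjusted p = 0.0669), and with the gene span alone (-0.50).

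Of 9 Timd4 sites, 2 were called higher in cDCs and 1 in pDCs. The strongest, chr11:46798401-46798760, was not called, with 2.91 and 4.79 CPM in pDCs, against 6.24 and 6.47 CPM in cDCs (-0.74 ± 0.30, adjusted p = 0.283; without pDC replicate 2 it was, at -1.13 and adjusted p = 0.03). At chr11:46834251-46834510, 23.56 kb after the start, there were 0.379 and 2.32 CPM in pDCs, against 5.62 and 5.48 CPM in cDCs. The fold was -2.12 ± 0.44 (adjusted p = 0.001745), and -1.26 without pDC replicate 1. It was -3.46 without pDC replicate 2, at a neighbouring window that became the summit. The site was called in both fits and passed over input in cDCs alone. At chr11:46804401-46804810, 6.14 kb before the start, there were 1.26 and 0.927 CPM in pDCs, against 4.83 and 4.15 CPM in cDCs (-2.0 ± 0.41, adjusted p = 0.00371), and the call ended without cDC replicate 1 (-1.90, adjusted p = 0.0693). The reverse held at chr11:46820101-46820310, 9.41 kb after the start. There, 3.54 and 2.94 CPM were counted in pDCs, against 0.967 and 1.74 CPM in cDCs (1.25 ± 0.41, adjusted p = 0.0355). That site passed over input in neither cell type, and its call ended without pDC replicate 1 (1.10), cDC replicate 1 (0.89) or cDC replicate 2 (1.74). The single-window promoter site, chr11:46810751-46810760, beside the printed composite, had 6 and 3 counts in pDCs, against 36 and 13 in cDCs (-1.73 ± 0.60, adjusted p = 0.0512, not called).

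Mertk encodes a TAM receptor tyrosine kinase that recognises dying cells through Gas6 and protein S. Its locus on chromosome 2 (128698915 to 128803162) had the lowest level of the 10, with 61.9 and 47.45 CPM in pDCs, against 37.35 and 42.1 CPM in cDCs. The log2 fold of 0.46 ± 0.19 was not called (adjusted p = 0.104), and 29.2% of the windows also lay in another locus. It was called without pDC replicate 2 (0.64) and with no flank or a flank of 10 kb (0.72 in both), and was -0.015, uncalled, with repeat-window library sizes. Its strongest site, chr2:128796501-128796710, had 3.41 and 3.86 CPM in pDCs, against 3.69 and 2.82 CPM in cDCs, and its groups overlapped (0.16 ± 0.34, adjusted p = 0.879, and -0.39 with repeat-window library sizes). The only called site, chr2:128771201-128771360 in the span, had 30 and 15 counts in pDCs, against 12 and 12 in cDCs (1.58 ± 0.44, adjusted p = 0.0382). It was uncalled without pDC replicate 1 (1.17), cDC replicate 1 (1.61) or cDC replicate 2 (1.54). It passed over input in pDCs alone, at a log2 fold over input of 7.59, against 6.13 in cDCs, with 0 input counts.

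Axl encodes a second TAM kinase, also known from a dendritic cell subset. On chromosome 7, the Axl locus (span 25756500 to 25788924) held 181 and 168 CPM in pDCs, against 265 and 236.5 CPM in cDCs, and 65.5% of its windows also lay in other loci. Both pDC libraries were below both cDC libraries, at -0.52 ± 0.12 (adjusted p = 0.00664). The locus was uncalled without cDC replicate 1 (-0.44) or 2 (-0.60), and with flanks of 50 kb (-0.33). The site chr7:25776701-25777160, 11.78 kb after the start, ranked at percentile 99.9 of all sites and held 69.0% and 75.2% of the locus counts in pDCs, against 78.1% and 72.7% in cDCs. Its summit had 29.6 and 28.1 CPM in pDCs, against 44.0 and 35.2 CPM in cDCs, with 0 counts in the input.

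The Axl summit itself differed by -0.46 ± 0.21, and the site was called (adjusted p = 0.0343) through a neighbouring window with a fold of -1.18 ± 0.29. The call ended without pDC replicate 1 (-0.49), cDC replicate 1 (-0.29) or cDC replicate 2 (-0.61). The site passed over input in both cell types. The weaker site chr7:25784851-25785060, 3.73 kb after the start, had 7 and 8 counts in pDCs, against 31 and 27 in cDCs. Its window with the smallest p had a fold of -2.98 ± 0.65 (adjusted p = 0.00787) and its summit -1.23 ± 0.46. Without pDC replicate 1 or 2 a neighbouring window became the summit, with folds of -1.61, uncalled, and -3.44. The site passed over input in neither cell type.

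Adgre1 encodes F4/80, the adhesion receptor used as the marker of mouse macrophages. The Adgre1 locus on chromosome 17 (span 57358581 to 57483529) held 93.0 and 138 CPM in pDCs, against 141 and 148 CPM in cDCs (-0.32 ± 0.16, adjusted p = 0.19, not called). The strongest site, chr17:57347001-57347360, lies 11.22 kb outside the span on the side of Vav1, with 66.7% of the windows of the locus shared with another locus. It had 12.9 and 16.4 CPM in pDCs, against 13.3 and 15.8 CPM in cDCs, and its groups overlapped (0.01 ± 0.22, adjusted p = 0.844, not called). Without pDC replicate 2 the site was called lower in pDCs (-0.17, adjusted p = 0.0351). Within the gene span alone the fold was -2.09 and with flanks of 10 kb -1.77, both called. With flanks of 20 kb it was called without pDC replicate 2 (-0.63).

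The Adgre1 site chr17:57450801-57451010, in the span, had 2 and 6 summit counts in pDCs, against 51 and 53 in cDCs, or 0.253 and 0.927 CPM against 4.48 and 4.40 CPM. Its fold was -2.96 ± 0.49 (adjusted p = 0.000395), -2.24 without pDC replicate 1 and -4.07 without pDC replicate 2, called in both, and it passed over input in cDCs alone. Relative to the strongest site, its CPM was 0.0196 and 0.0566 in pDCs, against 0.338 and 0.279 in cDCs. A neighbour, chr17:57449551-57449760, had 3 and 8 counts in pDCs, against 44 and 27 in cDCs (-1.96 ± 0.52, adjusted p = 0.0175). That fold was -1.29 without pDC replicate 1 and -1.52 without cDC replicate 1, both uncalled, and -2.96 without pDC replicate 2. The single-window site chr17:57349301-57349310, outside the span by 9.27 kb, went the other way, with 14 and 11 counts in pDCs, against 2 and 4 in cDCs (2.70 ± 0.67, adjusted p = 0.00779). It passed over input in neither cell type, and its call ended without pDC replicate 1 (2.67) or cDC replicate 1 (2.33). This window reached the 33 counts of a deposited window mostly through its pDC counts, a selection that the call leaves out.

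Lyz2 encodes lysozyme M, the gene whose promoter drives many myeloid transgenes. On chromosome 10, the Lyz2 locus (span 117277541 to 117282272) held 45.25 and 74.2 CPM in pDCs, against 91.3 and 108 CPM in cDCs. The groups did not overlap, at -0.75 ± 0.20 (adjusted p = 0.0141). Leaving out cDC replicate 2 gave -0.62 and no call, and the fold was -0.43 or -1.14 where pDC replicate 1 or 2 was left out. No tested window lay in the Lyz2 span, and every tested window of the locus also lay in the locus of Lyz1, the neighbouring lysozyme gene, so the signal cannot be assigned to either. The only called site, chr10:117285001-117285360, lies 2.93 kb before the Lyz2 start. It had 1.90 and 3.71 CPM in pDCs, against 6.15 and 5.48 CPM in cDCs (-1.08 ± 0.34, adjusted p = 0.0221), and passed over input in neither cell type. Without cDC replicate 1 (-0.99) or 2 (-1.16) it was uncalled, and without pDC replicate 1 the fold was -0.65. The strongest site, chr10:117301701-117302160, lies 19.53 kb before the start and 8.83 kb from the Lyz1 span, and passed over input in both cell types. It had 4.04 and 8.04 CPM in pDCs, against 5.18 and 10.1 CPM in cDCs, and its groups overlapped (-0.37 ± 0.32, adjusted p = 0.452, not called). Without pDC replicate 2 it was called (-0.93, adjusted p = 0.0391). The promoter site, chr10:117282301-117282410, had 9 and 10 counts in pDCs, against 22 and 14 in cDCs, and was not called (-0.21 ± 0.49, adjusted p = 0.874).

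**Figure D4:**
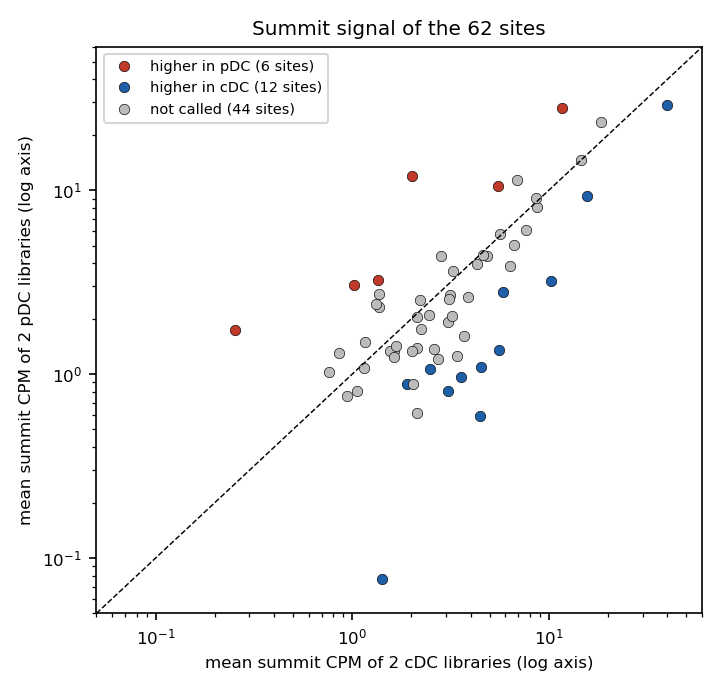
Mean summit CPM of each of the 62 sites in pDCs (vertical) against cDCs (horizontal), both on log axes, with equality as a dashed line; red dots are the 6 sites called higher in pDCs and blue dots the 12 called higher in cDCs. The rightmost blue dot is the strongest Axl site, close to the line, and the blue dots furthest from the line are weaker sites.

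Of the 18 called sites, 4 stayed called under every alternative that tested them: chr1:120501551-120501810 of Marco, chr5:17854251-17854960 of Cd36, chr11:46834251-46834510 of Timd4 and chr17:57450801-57451010 of Adgre1. All 4 lie in a gene span, as do 13 of the 18, and none is the strongest site of its locus. The Marco site was higher in pDCs and the other 3 were higher in cDCs. Of the 18, all stayed called with no filter, with a replicate block and with windows up to 500 bp apart joined. With library-size scaling or with the summit window alone 15 did, with repeat-window library sizes 10 (not the strongest Marco, Msr1, Axl and Mrc1 sites, the Mertk and Lyz2 sites and the Timd4 and Adgre1 sites higher in pDCs), and when a fold of 1.5 had to be exceeded 9. DESeq2 called 5 of them, these 4 and the strongest Marco site.

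Of 66 other genes of scavenging and efferocytosis, 62 had a tested window, of which 7 loci were higher in pDCs, 7 higher in cDCs and 48 missed the threshold. Over all loci 11.0% were higher in pDCs and 7.97% higher in cDCs, so these counts are near the background. The median log2 fold was 0.02 over the listed genes and 0.05 over all loci. The 4 without a tested window were Gas6, Adgrb1, Gulp1 and Maf. The neighbouring genes C1qa, C1qb and C1qc had the same windows and are 1 locus, which leaves 60 distinct loci of the 62. None of the bridging-ligand loci (5 genes, 3 distinct loci) was called by edgeR (1 had an unadjusted p below 0.05) or by DESeq2. Among 23 other receptors, 2 were higher in pDCs, among them Megf10, an engulfment receptor (0.90 ± 0.18, adjusted p = 0.00254). The lectins Mgl2 (-0.70 ± 0.17, adjusted p = 0.00823) and Clec7a (-0.75 ± 0.20, adjusted p = 0.016) were the 2 higher in cDCs. Among 12 genes of engulfment and cholesterol handling, 2 were higher in cDCs, among them Rac1, which drives the actin changes of engulfment (-0.61 ± 0.15, adjusted p = 0.011).

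Sirpa, the receptor for the "do not eat me" signal CD47, was the only one of 4 brakes called, higher in pDCs (0.47 ± 0.11, adjusted p = 0.0061), and it is also the cDC marker locus called higher in pDCs. The lysosomal cholesterol carriers Npc1 (0.68 ± 0.17, adjusted p = 0.0124) and Npc2 (0.54 ± 0.12, adjusted p = 0.00655) were higher in pDCs. Of the lysosomal loci, 2 were higher in cDCs, among them the protease Ctsd (-0.55 ± 0.16, adjusted p = 0.0217), and 4 of 8 were not called. Of 10 tested regulators, 2 were higher in pDCs, among them the oxysterol receptor Nr1h2 (0.65 ± 0.14, adjusted p = 0.00383), and 1 was higher in cDCs.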

How the data were processed

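PU.1 ChIP-seq was measured in 2 pDC and 2 cDC libraries with 1 cDC input. The authors deposited read counts per 10 bp window on a 50 bp grid, with no normalisation, for 329996 windows holding at least 33 counts over the 5 libraries. Reads were processed with Subread 1.4.4 among the tools and mm10 as the build, per the submitters' processing notes, and its step is not given in the sources used here. Neighbouring windows can count the same read, and the totals over windows (8099633 and 6896416 for pDCs, 11034858 and 11388554 for cDCs) are not sequencing depth, which is unknown.

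With edgeR 4.0.16 (R 4.3.3, limma 3.58.1, GenomicRanges 1.54.1), filterByExpr at a minimum count of 10 kept 286435 windows and left out 43561. The quasi-likelihood test with TMM factors compared pDC minus cDC (biological coefficient of variation 0.158). Tested windows no more than 100 bp from each other formed a site, split at 5000 bp, with window p-values combined by the Simes method; the window with the smallest p gives a site's direction. Loci were sums over the RefSeq GRCm38.p6 span of 21887 protein-coding genes with 20 kb flanks. That table has no exons. Adjustment was by Benjamini-Hochberg over all sites or loci. Signal over input needed an adjusted p under 0.05 and a summit fold of at least 2 in a fit of all 5 libraries, with totals over windows as library sizes. That fit takes the spread of the 1 input from the PU.1 libraries and sets pDCs against the cDC input too. The SE is implied by the F statistic. Scripts were tested on simulated data.

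Replicates differed beyond counting error (chi-square per window 3.18 for pDCs and 1.44 for cDCs). In each locus the text gives the strongest site, every called site and further sites by level, at most 3; in the pathway list at most 10 called genes, those with the smallest adjusted p, 1 of which is not reported here. The genes and lists were chosen with earlier results of these data known. DESeq2 1.42.0, other scalings, filters, flanks, joins and leaving out each library were alternatives.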

Additional observations from a re-analysis of the deposited data

How the results depend on the processing

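Of the 10 loci, 5 were called, against 0 with repeat-window library sizes, 1 when a fold of 1.5 had to be exceeded and 2 to 8 with 1 library left out; the other settings gave 4 to 7. All loci called were 3087, against 61 with repeat-window sizes, 558 past a fold of 1.5, 1798 in gene spans alone and 890 to 6599 with 1 library left out. Sites called at the 10 genes were 18, against 5 with DESeq2, 9 with windows averaging 30 counts or more, 9 past a fold of 1.5 and 6 to 26 with 1 library left out. All sites called were 8651, against 4789 with repeat-window sizes, 1885 with DESeq2, 4230 with windows averaging 30 counts or more, 4118 past a fold of 1.5 and 3093 to 15935 with 1 library left out. Of the 18 sites at the 10 genes, the 9 called in windows averaging 30 counts or more were all that this filter still tested. Sites over input were 19 in pDCs and 26 in cDCs, against 56 and 61 with repeat-window sizes. Scaling by library size alone split all sites 4204 higher in pDCs to 4981 higher in cDCs, against 5083 to 3568, and all loci 1052 to 1845, against 1792 to 1295. Repeat-window sizes moved the median log2 fold of all loci to -0.46.

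No called locus or site changed direction. Among uncalled ones, the Cd68 locus (-0.02) was 0.26 in the gene span alone, 0.039 with flanks of 10 kb, 0.105 in windows averaging 30 counts or more and -0.056 to 0.015 with 1 library left out. The Mrc1 locus was -0.003 with flanks of 50 kb and -0.28 with repeat-window sizes, which gave -0.015 at the Mertk locus, -0.39 at the strongest Mertk site, -0.58 at the strongest Adgre1 site and -0.15 at the Cd68 start. The strongest Adgre1 site was also -0.12 with library-size scaling and -0.017 in windows averaging 30 counts or more. With 1 library left out it ranged from -0.17 to 0.17, the strongest Mertk site from -0.025 to 0.53, the strongest Lyz2 site from -0.93 to 0.20, and the promoter sites of Lyz2 from -0.54 to 0.19 and of Cd36 from -0.67 to 0.18. The cause of these changes was not tested. Over 53 sites and all settings, 39 of 660 folds changed sign, at 21 sites, none of them called with every library. Of 35 uncalled sites, 7 were called without pDC replicate 2, among them the strongest Adgre1 site (-0.17, adjusted p = 0.0351), the strongest Lyz2 site (-0.93, adjusted p = 0.0391) and the strongest Timd4 site. A fit without 1 library leaves 1 cell type with 1 library, which is assumed to vary like the other pair.

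Same-numbered libraries did not deviate together (r = 0.0153 over windows), and the labels do not say that numbers mark a shared day or animal. A replicate block called 6 loci and 20 sites at the 10 genes, 3379 loci and 9675 sites in all.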
